A study of Mus musculus with 2 samples.

Results

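The motifs described here are the DNA patterns recorded for 6 orphan nuclear receptors of the NR2 family, NR2F1, NR2F2, Nr2f6, NR2C2, Nr2e1 and Nr2e3. They were picked by name, ignoring upper and lower case and keeping rows with a variant ending, and 7 of the 579 motifs in the count matrices matched. These 7 are NR2F1 (matrix MA0017.2), NR2F2 (MA1111.1), Nr2f6 (MA0677.1), Nr2f6(var.2) (MA0728.1), NR2C2 (MA0504.1), Nr2e1 (MA0676.1) and Nr2e3 (MA0164.1). Chromatin accessibility had been measured in single cells of dissociated wild-type (WT) mouse retina at embryonic day E14.5, with the 10x Genomics droplet assay. The labels give 2 replicate libraries of this 1 group, with no treatment, mutant or second stage. Whether separate animals or litters were used is not stated in them, so no SD, standard error (SE) or p-value covers a known spread between animals. The SEs and p-values of the tests below rest on the residual spread of sums of cells from these 2 libraries, pooled over motifs.

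Nuclear receptors of this family bind the hexamer AGGTCA or a close variant, as monomers or as dimers on repeated hexamers, and retinoid receptors bind the same core with other spacings. NR2F1 and NR2F2 (COUP-TFI and COUP-TFII) are known in the developing mouse eye for dorsoventral patterning of the retina and for keeping optic cup and optic stalk apart. Nr2f6 (EAR2) is their closest relative, and NR2C2 (TR4) is a broadly expressed receptor that binds direct repeats. Nr2e1 (TLX) is a repressor that maintains neural and retinal progenitors, and Nr2e3 is the photoreceptor nuclear receptor that represses cone genes in rods. At E14.5 the mouse retina holds dividing progenitors together with newborn ganglion, horizontal, amacrine and cone cells. A motif count is the number of transposase cuts in peaks that hold the pattern, so it measures the accessibility of those peaks. It does not measure binding by the receptor or its expression, and motifs of like pattern count the same cuts in shared peaks.

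To show what AGGTCA and its variants look like in DNA, 30-base windows around exact matches were taken from RefSeq mouse promoters (GRCm38.p6). They are printed in lower case, with the matched letters in capitals. The genes were chosen as illustrations for what they are known to do, with no measured value behind the choice. AGGTCA matched near the starts of the progenitor gene Sox2, the short-wavelength cone opsin gene Opn1sw and the retinoid receptor gene Rxrg, on the strand given.
Sox2, chr3:34649745-34649774, minus strand: ccccccgttttcagcaacAGGTCAcggcgc
Opn1sw, chr6:29380698-29380727, minus strand: tccaaagaatatAGGTCAgcatcctccagg
Rxrg, chr1:167618165-167618194, plus strand: atcggggttgaaAGGTCAgctgaaagcttc
AAGTCA, the variant core known for Nr2e1, matched near the starts of Nr2e1 itself and of Foxn4, a gene of horizontal and amacrine cell formation.
Nr2e1, chr10:42583566-42583595, minus strand: gcgacaggcacaAAGTCAcagggtaatgaa
Foxn4, chr5:114273933-114273962, plus strand: gcgggccccagcAAGTCAgcctcgtgcgcc
The direct repeat with a 1-base gap, AGGTCANAGGTCA, is the arrangement known for COUP-TF, TR4 and RXR dimers, and it matched near Bco1, which encodes the enzyme that cleaves beta-carotene to retinal, and near the iron-sulfur cluster gene Isca1.
Bco1, chr8:117095800-117095829, minus strand: tgtgtgttAGGTCAaAGGTCAgttcccaag
Isca1, chr13:59769902-59769931, minus strand: agcccgcaAGGTCAcAGGTCAcctcccttg

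How often these letters occur was counted on both strands of 32851 promoter windows of the same RefSeq table. AGGTCA was present in 5340 windows (16.3%) and AAGTCA in 4966 (15.1%). The 1-base-gap repeat was present in 13 windows (0.0396%), each of which also counts among the AGGTCA windows, and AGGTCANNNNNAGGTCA, the 5-base-gap repeat known for retinoic acid receptors, in 3 (0.00913%). A single core was thus common in promoters and an exact repeat rare. A match is a description of letters, not a binding site, and the matrices behind the counts tolerate mismatches. The letters of the matrices were not at hand, so how near each matrix is to AGGTCA was not examined. Whether the Nr2e3 matrix holds that core at all is therefore not known here.

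Cells were kept where a barcode held at least 300000 motif counts and more than the same barcode held in the other library. This left 890 of 2422 barcodes in replicate 1 and 1051 of 3033 in replicate 2, with 98.3% and 97.3% of the counts and a median of 3519151 and 3523871 counts per cell. Barcodes were widely shared, 1828 of them occurring in both libraries. Of the kept cells, 872 (98.0%) and 925 (88.0%) had a copy in the other library, which was shallower by a median of 56.5-fold and 127-fold. The log10 totals of the kept cells and their copies were correlated across barcodes (r = 0.902 and 0.906). Only 18 and 126 kept cells had no copy, so the comparisons below are also given for those cells alone, where replicate 1 is nearly empty. Whether the shared barcodes bear on the results was not tested beyond this.

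The 7 motifs spanned a wide range of levels, and the libraries gave nearly the same level for all but NR2F1. The level is the share of all motif counts of the kept cells, which depends on how many peaks hold the pattern and is not scaled for pattern length. Nr2e3 was by far the most frequent of the 7, with 0.889% of counts in replicate 1 and 0.882% in replicate 2, ranks 23 and 22 of 579. NR2C2 followed with 0.141% and 0.140%, and Nr2e1 with 0.123% in both libraries. These 3 were also ordered this way in each library separately, and none of their values overlapped.

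The COUP-TF patterns were less frequent. Nr2f6 held 0.0660% and 0.0659% of counts, NR2F2 0.0478% and 0.0483%, and NR2F1 0.0414% and 0.0372%. The rarest was Nr2f6(var.2), with 0.0149% and 0.0153%, which is 555 counts per kept cell on average in replicate 1 and 558 in replicate 2. The order of the 7 levels was the same in both libraries, and every neighbouring pair in it differed by more than the spread between libraries. No kept cell had a count of 0 for any of the 7, and none of the 7 had the same counts as another motif in all kept cells.

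NR2F1 was the exception in agreement between libraries. Its share was higher in replicate 1 by a log2 ratio of 0.15, against an absolute log2 ratio of 0.021 for the median motif, and 35 of the 579 motifs had a wider ratio. For the other 6 members the log2 ratios lay between -0.042 and 0.015. The difference was there in barcodes left out by the filter as well, where NR2F1 held 0.0411% and 0.0375% of counts. With 1 library on each side it cannot be tested, and it does not touch the comparisons within a library that follow.

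**Figure D1:**
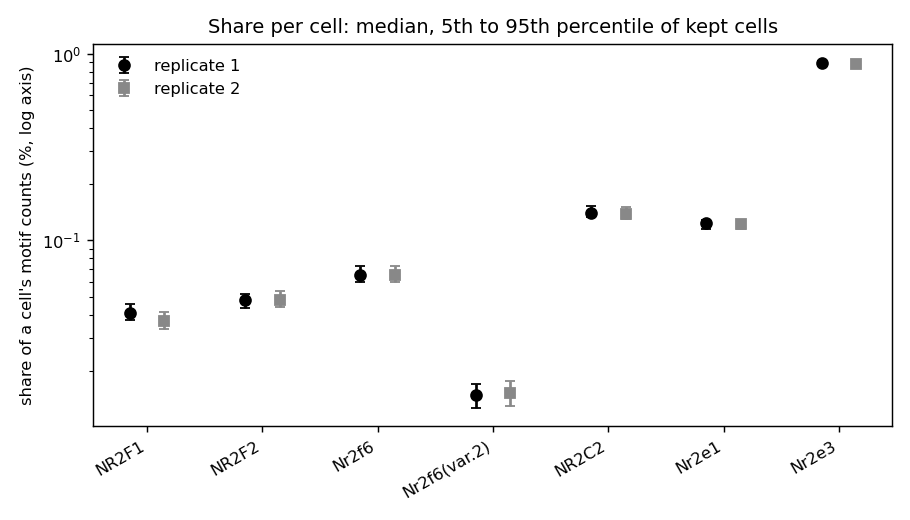
Share of a cell's motif counts (%, log axis) for the 7 motifs in the kept cells of replicate 1 (black circles, 890 cells) and replicate 2 (grey squares, 1051 cells). Points are medians and bars run from the 5th to the 95th percentile of cells; Nr2e3 stands highest and Nr2f6(var.2) lowest, and only NR2F1 shows a visible step between libraries.

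The share of each motif moved little from cell to cell. For Nr2e3 the median cell of replicate 1 had 0.889%, and the 5th and 95th percentiles were 0.873% and 0.909%. For Nr2f6(var.2) the same percentiles were 0.0126% and 0.0171% around a median of 0.0148%. Part of that spread is counting noise. In replicate 1 the total coefficient of variation was 1.31% for Nr2e3 and 9.55% for Nr2f6(var.2). After Poisson counting noise was subtracted it was 1.11% and 7.87%, or 0.833% and 6.37% in the middle tercile of cells by depth. Variability was therefore taken as the coefficient of variation (CV) across cells in excess of counting noise, and then as its residual from the trend of log2 CV on mean count over all 579 motifs.

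Nr2e3, the motif of the photoreceptor receptor, had the most even accessibility of the 7 and nearly of all motifs. Its excess CV was 1.11% in replicate 1 and 1.20% in replicate 2, against a median of 6.19% and 6.27% over all motifs. Its residual from the trend was -1.24 and -1.14 on the log2 scale, the lowest of 579 motifs in replicate 1 and rank 6 from the lowest in replicate 2. Below it in replicate 2 stood the forkhead motifs FOXI1, FOXD2, FOXO4, FOXO6 and FOXP3, at -1.138 each against -1.136. These forkhead rows had the same mean count and excess CV as one another. Such like rows are counted separately wherever a count is given out of 579. With a wider smoothing span, in the middle tercile of cells by depth and in cells of at least 1000000 counts it had the lowest residual in both libraries. Thinning every cell to 300000 counts gave ranks 1 and 6 again.

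Nr2e1, the motif of the progenitor receptor, also lay under the trend. Its excess CV was 2.95% and 3.02%, and its residual -0.52 and -0.53, ranks 40 and 42 from the lowest. In the middle tercile by depth the residual was smaller, -0.27 and -0.28, and the ranks were 97 and 82. Both Nr2e motifs thus had a below-trend residual in each library and under each of the 5 other settings tried.

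The other 5 motifs lay near the trend. NR2F1 had an excess CV of 4.97% and 5.43% with residuals of -0.19 and -0.16, and NR2F2 had 4.73% and 5.0% with -0.20 and -0.16. Nr2f6(var.2) had 7.87% and 7.95%, with residuals of -0.066 and -0.082. Nr2f6 lay above the trend, with an excess CV of 5.64% and 5.42% and residuals of 0.18 and 0.080, and NR2C2 sat on it, with 4.16% and 4.35% and residuals of 0.028 and 0.046.
Near the trend the sign depended on the setting for 4 of these 5. In the middle tercile by depth NR2F1 had residuals of 0.12 and 0.061 and NR2F2 had 0.040 and -0.086. In cells of at least 1000000 counts Nr2f6(var.2) had -0.13 and 0.024, and in thinned cells NR2C2 had 0.16 and -0.0082. Of the 7 residuals 5 were negative in each library, where 287 of 579 over all motifs were.

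Among 38 further nuclear receptor motifs, grouped as ROR, retinoid (RAR and RXR) and other receptors, none had a mean residual as low as that of Nr2e3 (-1.19). The lowest were VDR, the vitamin D receptor, at -0.80, and NR4A1, an immediate-early orphan receptor, at -0.58, both below Nr2e1 (-0.52). VDR was also about as frequent as Nr2e3, at 0.898% and 0.880% of counts. The highest was RORB, a receptor of retinal progenitors and photoreceptor precursors, at 0.36. Low residuals were thus found for the VDR and NR4A1 motifs too, not for the Nr2e motifs alone.

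**Figure D2:**
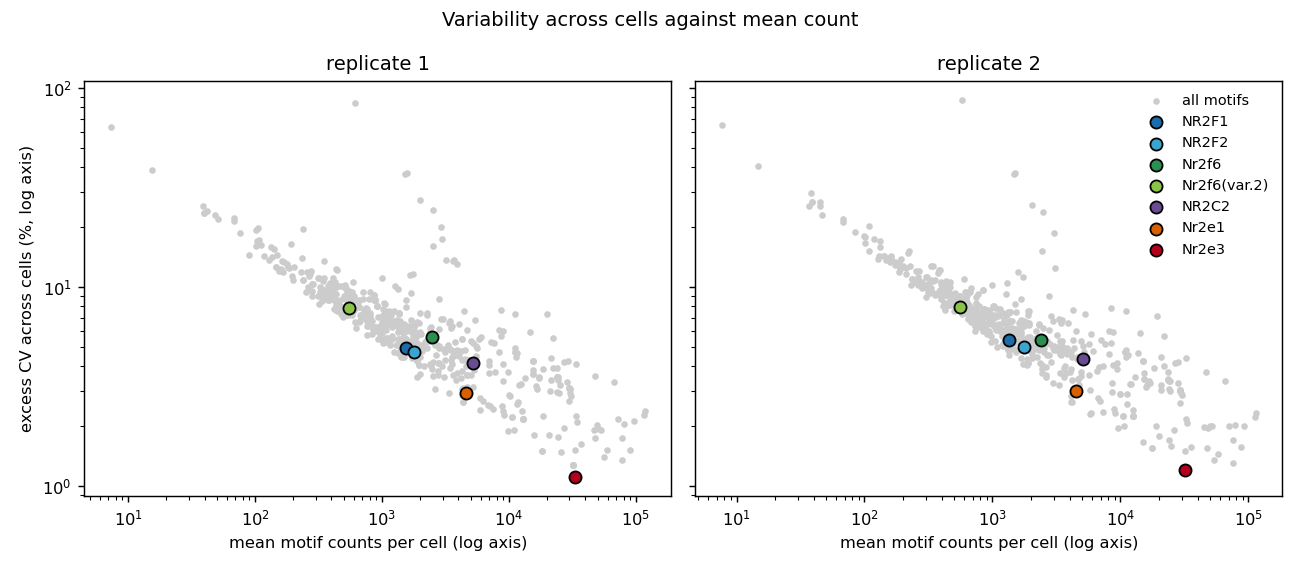
Excess CV across cells (%, log axis) against mean motif counts per cell (log axis) for all motifs (grey) and the 7 members (colours), in each library. Nr2e3 lies at the lower edge of the cloud at 1.11% and 1.20%, Nr2e1 lies low in it, and the COUP-TF and NR2C2 motifs lie inside it.

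Which motifs rose and fell together was described by the Pearson correlation, across the cells of a library, of log2 counts per 10000 with the cell's depth regressed out. Cells of a library share that library, and motifs of like pattern share cuts, so these correlations (890 and 1051 cells) carry no p-value. The median over all 167331 pairs of motifs was 0.0013 in replicate 1 and 0.0037 in replicate 2, and 4.59% and 4.31% of pairs exceeded 0.4.

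The COUP-TF and TR4 motifs formed a linked set. Nr2f6 and NR2C2 were the closest pair, with r = 0.76 in replicate 1 and 0.72 in replicate 2. NR2F1 was correlated with NR2C2 at 0.48 and 0.40, with Nr2f6 at 0.40 and 0.35, and with NR2F2 at 0.33 and 0.28. The pair with the lowest mean (0.23) among the 5 motifs of this set was Nr2f6 and its own variant Nr2f6(var.2), at 0.27 and 0.19. All 10 pairs of the set were positive in both libraries.

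Nr2e1 and Nr2e3 stood outside that set and apart from each other. Nr2e1 with NR2C2 gave -0.21 and -0.087, Nr2e1 with Nr2f6 gave -0.11 and -0.067, and Nr2e1 with Nr2e3 gave -0.16 and -0.12. Nr2e3 lay between -0.032 and 0.080 with each of the COUP-TF and TR4 motifs in each library. The motifs of the 2 NR2E receptors thus showed no positive correlation with each other in either library.

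The motif most like each member was found among the 572 non-members by the mean of both libraries. Nr2f6 was closest to the RXR motifs, with a mean r of 0.91 to Rxra, 0.90 to RXRG and 0.84 to RXRB, the retinoid X receptors that pair with many other nuclear receptors. NR2C2 had the same nearest motifs, at 0.72, 0.71 and 0.67. The motifs nearest to NR2F1 were RXRG (0.38), Rxra (0.37) and VDR (0.36).

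Other members were closest to other patterns. Nr2f6(var.2) was most like the retinoic acid receptor motifs Rarg (0.55), RARA (0.53) and Rarb (0.48), not the RXR motifs, which it met at 0.22 for Rxra. NR2F2 was most like the heat shock factor motifs HSF1 (0.34), HSF4 (0.33) and HSF2 (0.33). RXRG (0.30) and Rxra (0.29) were close behind, and HSF1 itself was at 0.41 in replicate 1 and 0.28 in replicate 2. So the variants of Nr2f6 differed in their nearest motifs. Those of the closely related receptors NR2F1 and NR2F2 differed by name, but for NR2F2 the gap was smaller than the difference between libraries.

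Nr2e1 was most like IRF1, an interferon regulatory factor, at 0.44, LIN54, a subunit of the cell-cycle DREAM complex, at 0.39, and the forkhead motif FOXC1 at 0.39. Its most opposite motif was ZNF263 at -0.43. Nr2e3 was most like Smad4, the common SMAD of TGF-beta signalling, at 0.46, the nuclear receptor NR4A2 at 0.38 and Stat4 at 0.34. NR4A2 set the Nr2e motifs apart, being at -0.32 with Nr2e1. No reading of shared function or control is attached to any of these likenesses.

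**Figure D3:**
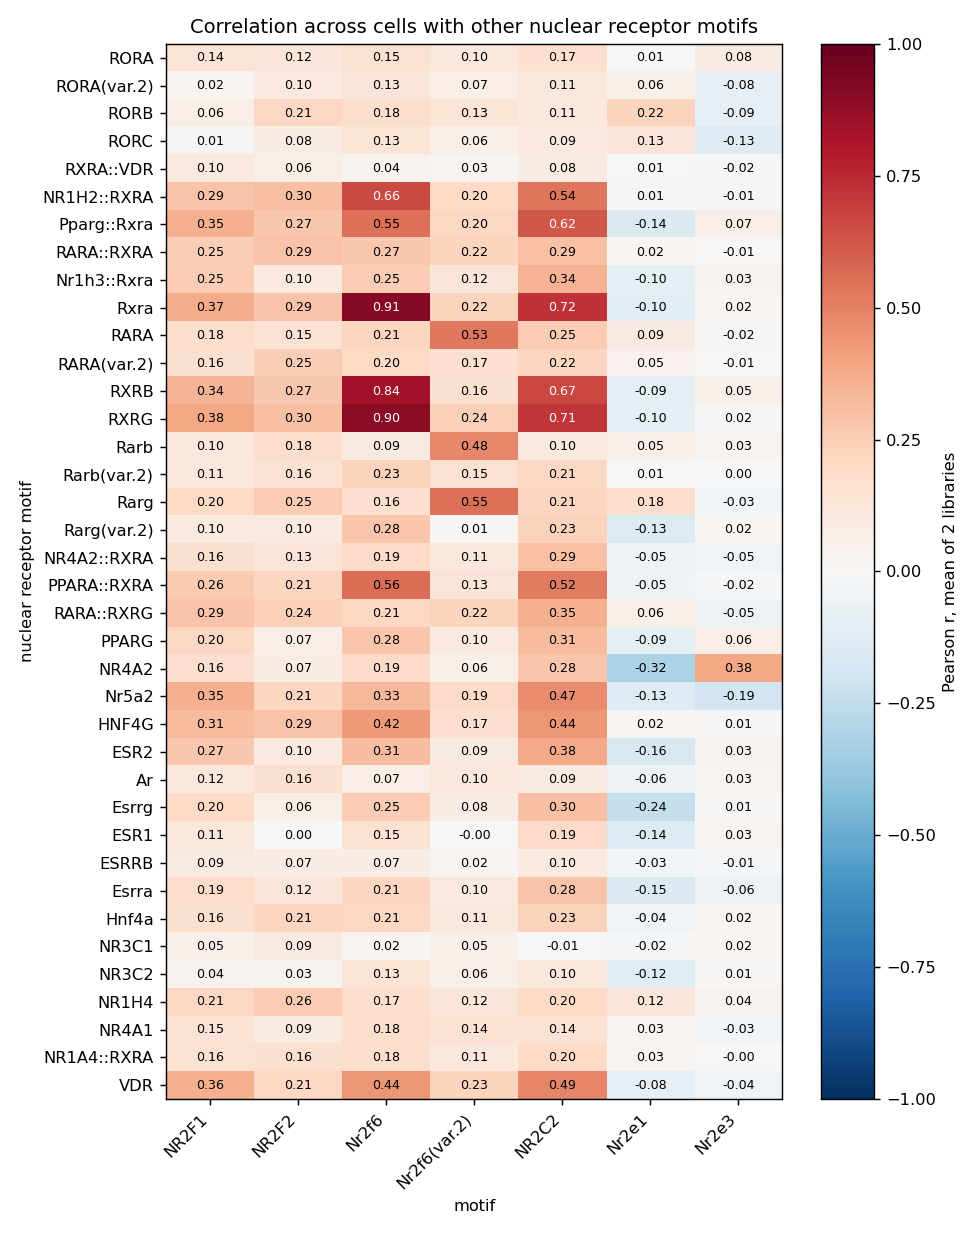
Pearson correlation across cells, averaged over the 2 libraries, of the 7 members (columns) with 38 other nuclear receptor motifs (rows). Red is positive and blue negative; the columns of Nr2f6 and NR2C2 are darkest at Rxra, RXRG and RXRB, Nr2f6(var.2) is darkest at Rarg, RARA and Rarb, and the Nr2e1 column is pale or blue.

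To place the members beside motifs of retinal cell classes, each class was given a list of motifs of its known factors, and a cell's score was the mean depth-adjusted, scaled level of that list. The lists hold no member, but the retinoid list holds Rxra, RXRG and RXRB, the motifs nearest to Nr2f6 and NR2C2. Motifs of like pattern share cuts, and how far that sets the values of the retinoid list was not tested. The retinoid list gave the highest values. With its 17 motifs Nr2f6 was correlated at 0.78 and 0.74 and NR2C2 at 0.77 and 0.71, and 0 of 555 other motifs had a higher mean. NR2F1 followed at 0.49 and 0.41, Nr2f6(var.2) at 0.44 and 0.42 and NR2F2 at 0.44 and 0.38. Nr2e1 (-0.11 and 0.035) and Nr2e3 (0.00047 and 0.0048) lay near 0.

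With progenitor motifs the highest values were those of Nr2e1 and NR2F2. Nr2e1 was correlated with the progenitor homeodomain list (VSX, RAX and LHX factors) at 0.39 and 0.33, where 119 of 566 other motifs had a higher mean. It was correlated with the SOX list at 0.26 and 0.25 and with the TEAD list, factors of the Hippo pathway, at 0.25 and 0.24. NR2F2 was correlated with TEAD at 0.32 and 0.27, where 90 of 568 others were higher, with SOX at 0.29 and 0.22 and with the homeodomain list at 0.21 and 0.15. These are moderate values within the range of all motifs, whose 90th percentile for the homeodomain list was 0.57 in both libraries.

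With the ganglion cell list of POU4F factors, Nr2e1 and Nr2e3 had opposite signs. Nr2e1 was at -0.30 and -0.31, and 547 of 569 other motifs had a higher mean. Nr2e3 was at 0.21 and 0.11, and 94 of 569 were higher. The remaining members lay between -0.16 and 0.096.

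With the photoreceptor list of CRX and OTX-type homeodomain motifs, the motif of the photoreceptor receptor Nr2e3 was not positive, at -0.062 and -0.047. The highest values were those of NR2C2, 0.17 and 0.059, and Nr2f6, 0.16 and 0.074, with 121 of 565 others higher for each. NR2F2 was at -0.0031 and -0.11. By rank correlation Nr2e3 was at 0.0018 and -0.0022, NR2C2 at 0.22 and 0.12 and Nr2f6 at 0.20 and 0.11. With the list of 12 neurogenic bHLH motifs Nr2f6 was at 0.23 and 0.15, where 61 of 560 other motifs had a higher mean. NR2C2 was at 0.16 and 0.056 with that list, and the remaining members lay between -0.11 and 0.051. The photoreceptor and neurogenic bHLH scores were themselves correlated, at 0.46 and 0.37.

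Motifs of GC-rich promoters moved against the progenitor scores, and their values belong beside these results. The promoter score was correlated with the SOX score at -0.70 and -0.66, with the TEAD score at -0.41 and -0.42 and with the homeodomain score at -0.76 in both libraries. Of the members, Nr2f6 was correlated with it at -0.25 and -0.15, Nr2e3 at -0.21 and -0.14 and NR2F2 at -0.20 and -0.16. When the promoter score was regressed out of both sides, Nr2e1 and the homeodomain score had r = 0.46 and 0.38, and Nr2e3 and the homeodomain score -0.34 and -0.29, against -0.048 and -0.074 without that step. NR2F2 and the homeodomain score then had r = 0.099 and 0.047, and Nr2f6 had -0.17 and -0.080 where it had 0.083 and 0.064 before. By rank correlation, without the promoter step, Nr2e3 and the homeodomain score were already at -0.18 and -0.21, and Nr2f6 was at -0.0025 and 0.0038.
For lists of cells outside the neural retina the values were as follows. With the 8 microglia motifs all members lay between -0.15 and 0.076, and with the 7 endothelial and erythroid motifs between -0.18 and 0.23, the highest being NR2C2. With the 4 pigment epithelium motifs they lay between -0.25 and 0.0087.

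**Figure D4:**
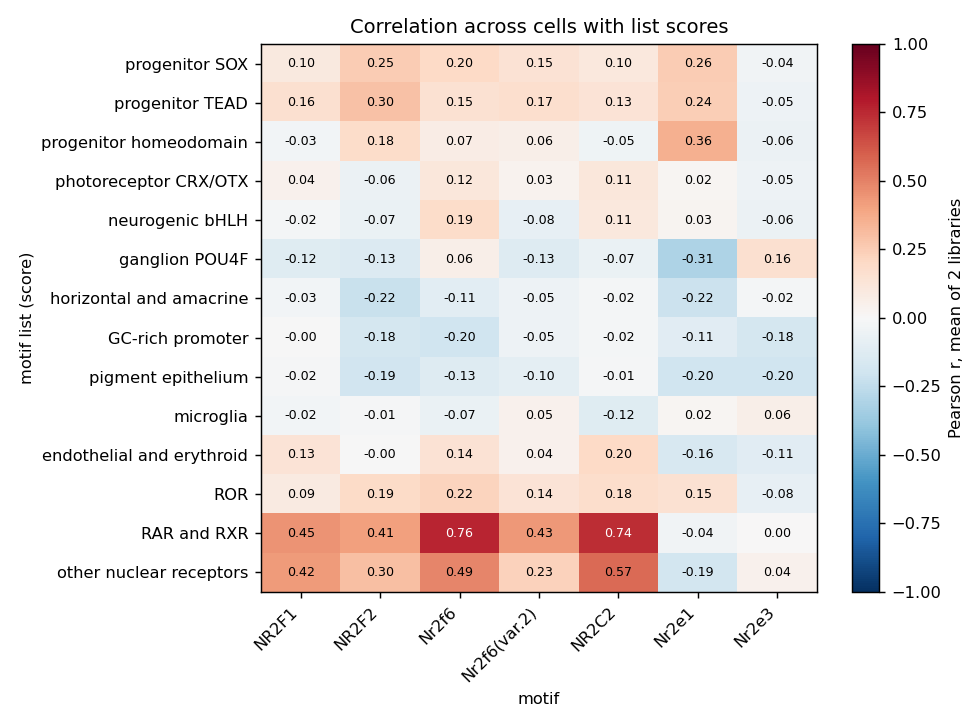
Pearson correlation across cells, averaged over the 2 libraries, of the 7 members (columns) with the scores of 14 motif lists (rows). The row of RAR and RXR motifs is dark red for the COUP-TF and NR2C2 columns and blank for Nr2e1 and Nr2e3; Nr2e1 is reddest at the progenitor homeodomain list (0.36) and bluest at the POU4F list (-0.31).

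For a test over libraries, the cells of each library were ranked by a score and cut into quintiles, the counts of each quintile were summed, and the highest was compared with the lowest by edgeR's quasi-likelihood test. The library was a block, and p-values were adjusted by Benjamini-Hochberg over all 579 motifs. A quintile is a range of a score and not a cell type, and between 4.76% and 10.6% of cells lay within 0.1 SD of a cut. Each quintile held 178 to 211 cells. Along the 3 progenitor scores most motifs of the whole table were called, so each count of members is read against the share of all motifs called. Where the lowest and highest quintiles of a member are said not to overlap, the number of all motifs with no overlap was not counted. Such a statement describes the member's values and does not set it apart from other motifs.

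Along the SOX score, the factors of dividing retinal progenitors, NR2F2 had the widest difference. Its share went from 0.0465% in the lowest quintile to 0.0489% in the highest in replicate 1, and from 0.0471% to 0.0490% in replicate 2. It was higher at every one of the 4 steps between quintiles in both libraries, and the lowest and highest quintiles did not overlap. After scaling this was a log2 difference of 0.055 (SE 0.0076, adjusted p = 2.01e-05 in edgeR), or 3.88%.

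All 7 members passed the test along this score, 6 higher and Nr2e3 lower, where 81.3% of all motifs were called, 40.4% higher and 40.9% lower. Nr2f6(var.2) followed NR2F2 at 0.047 (SE 0.0097, adjusted p = 0.000619 in edgeR), and Nr2f6, NR2F1, Nr2e1 and NR2C2 lay between 0.015 and 0.027. After TMM scaling Nr2e3 fell by 1.09%, a log2 difference of -0.016 (SE 0.0041, adjusted p = 0.00282 in edgeR). Its unscaled share went from 0.892% to 0.887% and from 0.884% to 0.880%. Without TMM scaling its log2 difference was smaller, -0.0071 (adjusted p = 0.00103 in edgeR). The 6 higher members had wider differences without TMM scaling, with NR2F2 at 0.0636 and NR2C2 at 0.0234. The median member differed by 0.024 on the log2 scale, where the median absolute difference over all motifs was 0.054, and 442 of 579 motifs differed more than NR2F1, the median member.
Without the library block 2 members were called, NR2F2 and Nr2f6. In cells of at least 1000000 counts 4 were called, where 219 of all 579 motifs were called higher and 246 lower. In cells without a shared barcode 0 were called by edgeR, with 1 at an unadjusted p under 0.05. With the promoter score regressed out Nr2f6 was at 0.0075 (adjusted p = 0.353 in edgeR), and without the deepest decile of cells NR2C2 was at 0.011 (adjusted p = 0.0690 in edgeR), neither of them called. Nr2e3 was at 0.0026 in the middle tercile by depth (adjusted p = 0.451 in edgeR, the highest over all settings, the lowest being 6.81e-10).

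Along the TEAD score the picture for NR2F2 was the same. Its share went from 0.0463% to 0.0488% in replicate 1 and from 0.0470% to 0.0492% in replicate 2, with no overlap. The log2 difference was 0.062 (SE 0.0074, adjusted p = 7.21e-06 in edgeR), or 4.36%, and 191 of 579 motifs differed more. In this comparison 78.6% of all motifs were called, 38.3% higher and 40.2% lower, and 6 members were called, all higher.

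The other 5 called members were Nr2f6(var.2) at 0.057 (SE 0.011, adjusted p = 0.000371 in edgeR), NR2F1 at 0.038 (SE 0.0067, adjusted p = 0.000163 in edgeR), and Nr2f6, NR2C2 and Nr2e1 between 0.019 and 0.030. Nr2e3 did not pass, at -0.0082 (SE 0.0037, adjusted p = 0.0572 in edgeR), and its unscaled share in replicate 2 was 0.882% in the lowest and 0.883% in the highest quintile. The median over members was 0.030 against a median absolute difference of 0.042 over all motifs.
Without the library block 2 members were called, NR2F2 and Nr2f6. In cells without a shared barcode edgeR called 0, and 0 had an unadjusted p under 0.05. In the middle tercile by depth Nr2f6 (0.013, adjusted p = 0.0778) and NR2C2 (0.011, adjusted p = 0.0904) were not called by edgeR. Nr2e3 was called lower in 5 alternatives: motifs with a mean of at least 100 counts, terciles, the deepest decile left out, the promoter score regressed out, and limma, with values between -0.0148 and -0.0060 and adjusted p from 0.000103 to 0.0189.

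Along the homeodomain score Nr2e1 had the widest difference of the members. Its share went from 0.120% to 0.124% in both libraries and was higher at each of the 4 steps, with no overlap of lowest and highest quintile. The log2 difference was 0.058 (SE 0.0071, adjusted p = 1.39e-13 in edgeR), or 4.13%, and 311 of 579 motifs differed more. Of the members 3 were called, all higher, against 82% of all motifs called, 41.3% higher and 40.8% lower. The p-values of this comparison are far smaller than those of the other scores. In all 4 fits edgeR's common dispersion was at its floor, 9.77e-05. Here the prior had 165 degrees of freedom, against 7.18 to 8.45 elsewhere, beside 4 residual ones. These p-values thus rest mostly on spread pooled over motifs and not on the 2 libraries. Without the library block the adjusted p of Nr2e1 was 0.00049 in edgeR.

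The other called members were NR2F2 at 0.047 (SE 0.0086, adjusted p = 2.75e-07 in edgeR) and Nr2f6(var.2) at 0.024 (SE 0.011, adjusted p = 0.0449 in edgeR). The call of Nr2f6(var.2) was lost without TMM scaling (0.017, adjusted p = 0.109), in cells of at least 1000000 counts (0.011, adjusted p = 0.342), without the block (adjusted p = 0.531) and with the promoter score regressed out (0.0017, adjusted p = 0.857), all in edgeR. NR2F1 (0.0043), Nr2f6 (0.011) and NR2C2 (-0.0030) did not pass, and their shares were highest in the second or the third quintile in both libraries and came back towards the first. Nr2e3 did not pass either, at -0.0062 (SE 0.0050, adjusted p = 0.235 in edgeR), although its share was lower at each of the 4 steps in both libraries, from 0.893% to 0.884% and from 0.886% to 0.878%. With library totals in place of TMM scaling, Nr2e3 fell by 0.013 (adjusted p = 6.89e-06 in edgeR), and over all settings its adjusted p ran from 3.08e-06 to 0.994. It was also called lower by DESeq2 (-0.0075), among motifs with a mean of at least 100 counts (-0.0059) and with the promoter score regressed out.

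The promoter score differed along this axis, its median going from 0.54 in the lowest quintile to -0.58 in the highest in replicate 1 and from 0.50 to -0.55 in replicate 2. When cells were ranked by the homeodomain score with the promoter score regressed out, 6 members were called. Of all 579 motifs 216 were called higher and 218 lower in that setting. Nr2e1 (0.057) and NR2F2 (0.013) were higher, and Nr2f6 (-0.037), NR2C2 (-0.028), Nr2e3 (-0.024) and NR2F1 (-0.023) were lower. In cells without a shared barcode edgeR called 0 members, and 0 had an unadjusted p under 0.05.

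Along the photoreceptor score, Nr2f6 and NR2C2 had the widest differences. The share of Nr2f6 went from 0.0647% to 0.0671% in replicate 1 and from 0.0651% to 0.0665% in replicate 2, a log2 difference of 0.043 (SE 0.0097, adjusted p = 0.00449 in edgeR), or 2.99%. The share of NR2C2 went from 0.139% to 0.143% and from 0.138% to 0.141%, higher at each of the 4 steps, a log2 difference of 0.037 (SE 0.0071, adjusted p = 0.00172 in edgeR), or 2.60%. For neither motif did the lowest and highest quintiles overlap, but for how many of all motifs this held was not counted. NR2F1 was the third motif called, at 0.026 (SE 0.0086, adjusted p = 0.0290 in edgeR), so that 3 members were higher and 0 lower where 48.7% of all motifs were called, 26.6% higher and 22.1% lower. Of the 12 neurogenic bHLH motifs 10 were higher and 0 lower along this score.

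Nr2e3 showed no detectable difference along the photoreceptor score. Its share was 0.889% in the lowest and 0.890% in the highest quintile of replicate 1, and 0.882% and 0.883% in replicate 2. The log2 difference was 0.0012 (SE 0.0072, adjusted p = 0.912 in edgeR), and 562 of 579 motifs differed more. Nr2e1 (0.014, adjusted p = 0.0831) and Nr2f6(var.2) (0.016, adjusted p = 0.167) did not pass in edgeR, nor did NR2F2, at 0.0022.
Without the library block 1 member, Nr2f6, was called, and in the middle tercile by depth NR2F1 was not called (0.018, adjusted p = 0.117 in edgeR). In cells of at least 1000000 counts 5 were called, where 186 of all 579 motifs were called higher and 142 lower. In cells without a shared barcode edgeR called 0, with 0 at an unadjusted p under 0.05.

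**Figure D5:**
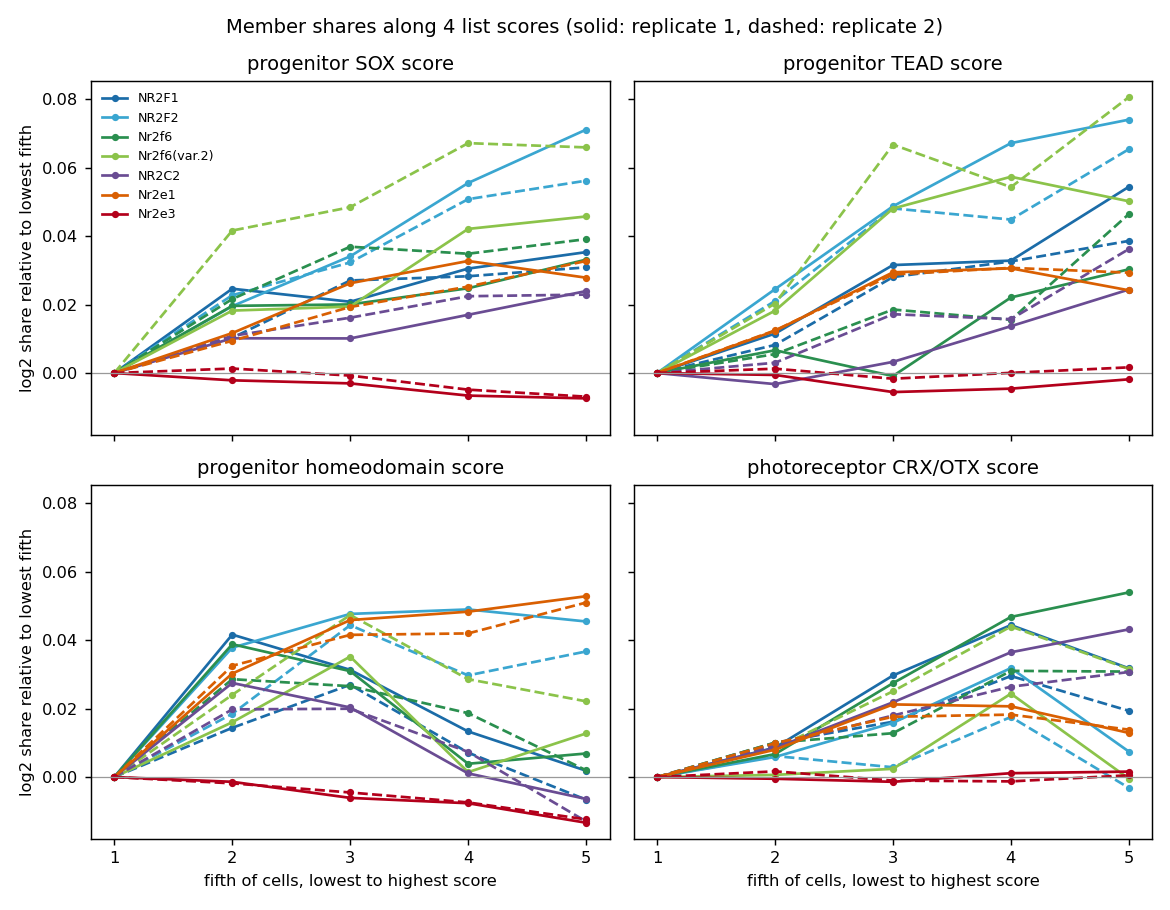
Share of each member in quintiles of cells, as log2 relative to the lowest quintile and before TMM scaling, along 4 list scores (solid lines replicate 1, dashed lines replicate 2). NR2F2 climbs along SOX and TEAD, Nr2e1 climbs along the homeodomain score while Nr2e3 declines, and Nr2f6 and NR2C2 climb along the photoreceptor score while Nr2e3 stays at 0.

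Other nuclear receptor motifs give these sizes a scale. Of the 4 ROR motifs, 4 were higher along the SOX score, 3 along TEAD and 4 along the homeodomain score, while 2 were lower along the photoreceptor score. RORB reached 0.26 along the homeodomain score, against 0.058 for Nr2e1, and the difference between these motifs was not tested. Of the 17 retinoid motifs, 13 were higher and 2 lower along SOX, 12 and 0 along TEAD, 8 and 2 along the homeodomain score, and 7 and 2 along the photoreceptor score.

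The 17 other nuclear receptors split differently, with 5 higher and 7 lower along SOX, 8 and 2 along TEAD, 4 and 8 along the homeodomain score, and 9 and 0 along the photoreceptor score. The highest among the retinoid motifs along SOX was RARA(var.2) at 0.11, and among the other receptors NR1H4, the bile acid receptor, at 0.12. PPARG, a fatty acid receptor, was highest of the latter along the photoreceptor score, at 0.056. The lowest along SOX were Rarg(var.2) at -0.035 and NR3C2, the mineralocorticoid receptor, at -0.045. Whether any member differed from these motifs was not tested.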

How the data were processed

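The deposited files hold, per the file headers, whole-number counts of 579 motifs by cell barcode for each of 2 libraries, written by software version 1.1.0. Cell Ranger and mm10 come from the submitters' processing notes. How peaks were called and motifs searched is not given in the sources used here. Motif and barcode files hold names only. The members, motif lists, scores and cell filter were chosen with earlier results of these data known.

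Counts per cell were taken as log2(counts per 10000 + pseudocount of 1), the log10 total was regressed out within each library, and a list score was the mean of the scaled values. Excess CV is the CV of shares after subtracting Poisson noise, and its trend on mean count a lowess (span 0.3). Doublets were not called, but the deepest decile of cells was left out in an alternative. The 5 quintile sums per library were fitted in edgeR 4.0.16 (R 4.3.3) with TMM scaling and library as a block, leaving 4 residual degrees of freedom. The block takes out what the sums of a library share. Score and tested motifs share cuts. Totals of 300520 to 23789174 counts per kept cell set the counting error, whose Poisson part was subtracted from the CV.

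Motifs named beside the 7 members were, by rule, the 3 non-members most correlated with each, and the highest and lowest of each nuclear receptor list. ZNF263, the NR4A2 value for Nr2e1 and the Rxra value for Nr2f6(var.2) were added after their values were seen. So were the RXRG and Rxra values for NR2F2 and the forkhead motifs with a residual below that of Nr2e3. Alternatives were DESeq2 1.42.0, library totals without TMM, no block, terciles, other cell filters and scores with depth or promoter adjustment changed. limma 3.58.1 was added after seeing the data. On simulated data, of 100 motifs changed 1.02-fold edgeR recovered 60, 75, 69 and 52 along the SOX, TEAD, homeodomain and photoreceptor scores (579 motifs each), and of 100 changed 1.05-fold 93, 96, 92 and 98. It called 1, 4, 3 and 0 of 379 unchanged motifs. The simulated sums were drawn independently for each motif, with changes in the highest quintile only and most motifs unchanged. They hold no ranking of cells by a score and no cuts shared between motifs. They therefore cannot give the rate of false calls in the real comparisons.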

Additional observations from a re-analysis of the deposited data

How the results depend on the processing

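The comparisons of quintiles depended most on the block and on the shared barcodes. With no replicate block, so that the sums of a library were not paired, 2, 2 and 1 members were called along the SOX, TEAD and photoreceptor scores, and 270, 231, 286 and 61 of all motifs along the SOX, TEAD, homeodomain and photoreceptor scores; along the homeodomain score 2 members were called. With barcodes in both libraries left out (18 and 126 cells), 0 members were called along each score, and 95, 131, 163 and 0 of all motifs (177, 173, 204 and 35 at an unadjusted p under 0.05 in edgeR). There 12 log2 differences turned, none of them called: NR2F1 -0.0586 and Nr2e1 -0.0019 along SOX; Nr2f6 -0.0556 and NR2C2 -0.0232 along TEAD; NR2F1 -0.082, NR2F2 -0.007, Nr2f6 -0.0055, Nr2f6(var.2) -0.0095, Nr2e1 -0.0012 and Nr2e3 0.0002 along the homeodomain score; NR2F2 -0.0338 and Nr2e3 -0.008 along the photoreceptor score. With at least 1000000 counts per cell, 4 members were called along SOX, where 219 of all motifs were higher and 246 lower. Along the photoreceptor score 5 were called, where 186 of all motifs were higher and 142 lower. In the same cells NR2F1 (-0.0008) and Nr2f6 (-0.0009) turned along the homeodomain score. With the promoter score regressed out, 6 members were called along the homeodomain score, where 216 of all motifs were higher and 218 lower. There NR2F1 (-0.0225, adjusted p = 0.0130 in edgeR) and Nr2f6 (-0.0373, adjusted p = 0.000387 in edgeR) turned and were called. Over all settings the adjusted p of these ranged from 0.0130 to 0.984 for NR2F1 and from 0.000387 to 1 for Nr2f6, and that of Nr2e1 along the same score from 2.48e-40 to 0.984. The remaining turns were of values not called in the alternative. In the middle tercile by depth these were Nr2e3 along SOX (0.0026), and NR2F2 (-0.0096) and Nr2e3 (-0.0045) along the photoreceptor score. Along the homeodomain score they were NR2F1 without TMM (-0.0024), NR2F1 (-0.0032) and Nr2f6 (-0.0015) with terciles, and NR2C2 without the deepest decile (0.0021). Along the photoreceptor score they were NR2F2 (-0.0008) and Nr2e3 (-0.0018) with DESeq2, and Nr2e3 with terciles (-0.0011) and without the deepest decile (-0.0016). The causes were not tested, except that the shared-barcode setting leaves few cells. limma, chosen after seeing the data, left 26 of 28 member differences on the same side of the threshold and moved 2 past it. Leaving out either replicate gives values with no test, and 25 of the 28 kept their sign. The 3 that turned were not called: NR2F2 (-0.0049) and Nr2e3 (-0.0013) along the photoreceptor score with replicate 2 alone, and NR2C2 along the homeodomain score with replicate 1 alone (2.43e-05). The values ranged from -0.0184 to 0.0652 along SOX, -0.0134 to 0.076 along TEAD, -0.0069 to 0.0592 along the homeodomain score and -0.0049 to 0.056 along the photoreceptor score.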
